A study of Mus musculus with 2 samples.

Results

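The genes described here mark the neurons and glia of the inner retina, and they were measured in RNA from dissected lenses. The set holds 33 genes of the 21673 in the deposited table, chosen by name as markers of Müller glia, bipolar cells, amacrine and horizontal cells, ganglion cells and their synapses. The choice was made with the levels of these same genes in these same libraries known, so what follows describes the values and tests nothing. Lenses came from C57BL/6 mice aged 60 days after birth, and each genotype gave 1 library. CKO mice had both Msx2 alleles floxed (Msx2fl/fl) and a single copy of Le-Cre (Le-Cre+/-), a transgene with Cre recombinase under a Pax6 promoter, active in lens and other derivatives of the surface ectoderm. WT mice were Msx2fl/fl too but lacked Cre, so effects of the transgene and of losing Msx2 cannot be told apart. The sources used here do not say whether a library pools several animals.

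In the retina, photoreceptors pass their signal to bipolar cells, and bipolar cells pass it to ganglion cells, whose axons form the optic nerve. Horizontal and amacrine cells modulate those contacts sideways, mostly by releasing GABA or glycine. Müller glia span the tissue, clear glutamate and help to recycle the visual chromophore. The lens lies in front of the retina, is built of epithelial and fibre cells, and holds no neurons.

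The recovered reads totalled 17165504 for CKO and 20784737 for WT. Msx2 had 3 reads in CKO against 311 in WT. Lens fibre markers were abundant in both libraries, with summed levels of 18696 FPKM in CKO against 41942 in WT, where FPKM is the number of fragments scaled to gene length and library size. The libraries also differed in Xist, at 16251 reads in CKO against 35 in WT, and in the Y-linked gene Ddx3y, at 1 read in CKO against 729 in WT. This sex-linked difference coincides with genotype, so its effects and those of genotype cannot be told apart. A gene was called higher or lower where the log2 ratio of FPKM + 1, CKO over WT, reached 2-fold and its mean level was at least 1 FPKM. Of 10757 genes with that level, 627 (5.83%) were higher and 315 (2.93%) lower. Of these calls 66.6% were higher, against 96.8% with scaling to library totals alone and 79.3% with totals without crystallins. Those scalings raised the median over those genes, as a log2 ratio, by 0.70 and by 0.19. Neither genotype has a second library, so no value below has been set against differences between animals, and no library could be left out.

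Most of the inner retina genes were at low levels in both lens libraries, and most were higher in CKO. Together the 33 genes made up 0.135% of the CKO reads and 0.0191% of the WT reads. Their levels ran from 0.522 to 93.2 FPKM in CKO and from 0 to 38.3 FPKM in WT. In WT, 27 of the 33 lay below 1 FPKM, while in CKO 5 did. By the size rule 24 members had a sufficient mean level, of which 20 were higher, 4 within 2-fold and none lower. The other 9 (Vsx1, Pcp2, Gng13, Lhx4, Calb1, Gad2, Nefm, Pou4f1 and Stmn2) had a mean below 1 FPKM. A low gene can reach that mean through its higher library alone, so a count among the members that did supports nothing. Without the filter, 23 of 33 were higher and none lower, beside 3.69% and 1.72% of the whole table.

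Adding 1 FPKM understates the ratio of low genes, so the ratio of plain FPKM is given below with an exact 95% interval for counting error. By that interval 28 of the 33 were more than 2-fold higher in CKO and none more than 2-fold lower, beside 6.80% and 1.64% of all genes in the table. The 5 others were Prkca, Trpm1, Gng13, Scgn and Pou4f1. Of any size, 31 ratios lay above 1 and 2 below, beside 53.8% and 46.2% of the table. Restricted to the genes of sufficient mean level, the interval called 21 of 24 members higher and none lower, beside 5.83% and 2.42%. The median ratio over the 33 genes was 17.5, with Vsx1, which has no WT read and so no ratio, placed above it, and the other 32 ratios ran from 0.866 to 103. Their median log2 ratio of FPKM + 1 was 1.69, against 0.02 over all genes in the table. Photoreceptor markers moved with them. All 25 of that list were more than 2-fold higher by the interval, none was at 0 in either library, and their summed level was 1174 FPKM in CKO against 64.4 in WT. The part of photoreceptor RNA in the values below was not tested. In bulk RNA, more cells of a type and more RNA per cell cannot be told apart.

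With the size rule, other settings gave 20 to 23 higher members and no lower one. A pseudocount of 0.1 FPKM gave 21 higher, where 8.14% of all genes were higher and 4.55% lower. A minimum of 10 reads in place of the mean level gave 23 (4.56% and 1.81%). Library totals alone gave 22 (20.3% and 0.664%), totals without crystallins 20 (7.36% and 1.92%) and median-of-ratios scaling 20 (5.78% and 3.02%). Since the choice of genes used this same contrast, nothing is read from these shares.

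**Figure D1:**
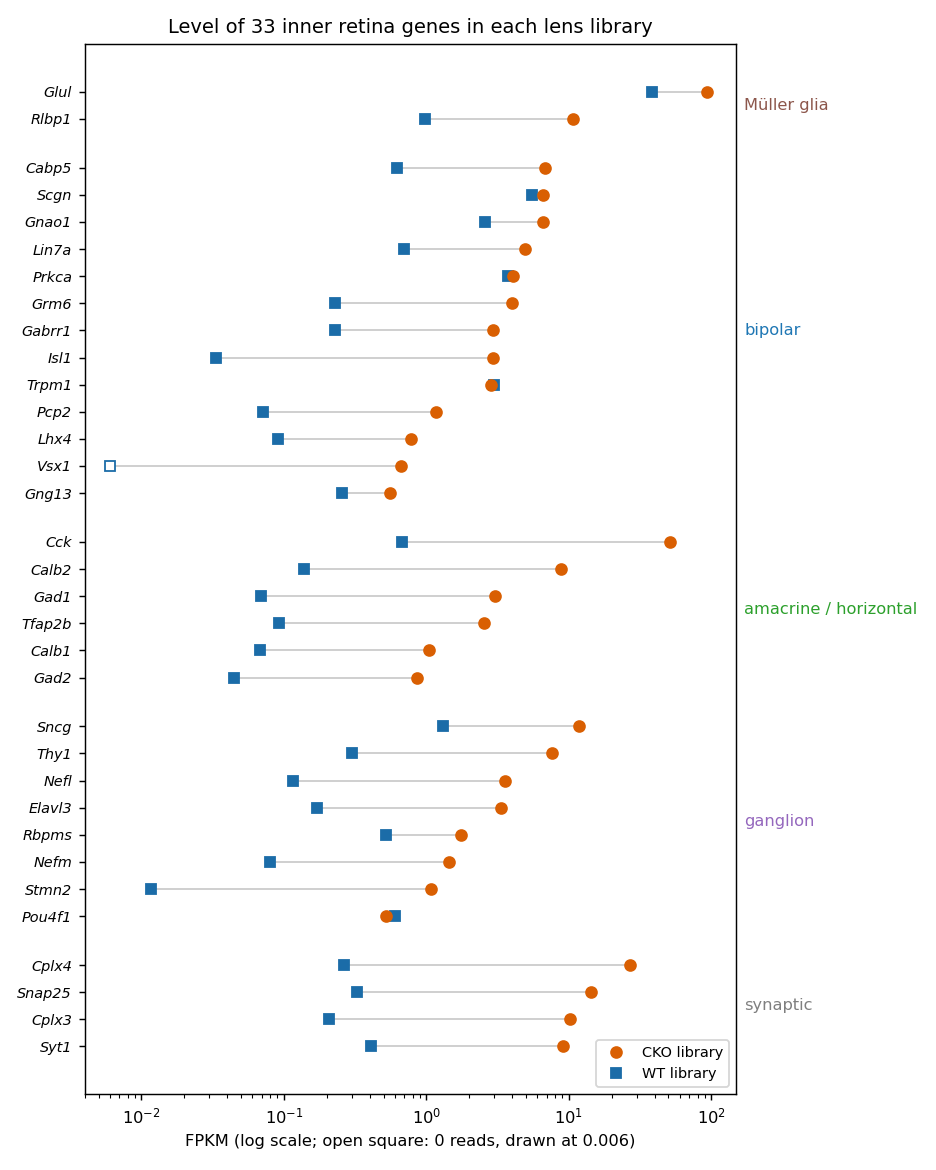
Level of each of the 33 genes in FPKM on a log axis, grouped by the cell class they mark, with 1 point per library (circles, CKO; squares, WT). Glul is the most abundant gene in both libraries, the circles of Prkca, Scgn, Trpm1 and Pou4f1 lie on or beside their squares, and Vsx1 had no read in WT.

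Both Müller glia members were higher in CKO, by different amounts. Glul encodes glutamine synthetase, which turns glutamate taken up by the glia into glutamine, and is also used by many other tissues. It was at 93.2 FPKM in CKO against 38.3 in WT, on 7234 CKO and 1941 WT reads, 2.43-fold higher (2.32 to 2.56). Glul was the most abundant member in each library, and its level was above the summed level of each neuronal class of members. Rlbp1 encodes CRALBP, the retinoid carrier of Müller glia and pigment epithelium. It was at 10.6 FPKM in CKO against 0.976 in WT, on 732 CKO and 44 WT reads, 10.9-fold higher (8.01 to 15.1). The pigment epithelium, iris and ciliary body list had no gene of 14 more than 2-fold higher by the interval and 1 lower, beside 6.80% and 1.64% of all genes. Nothing is read from so small a count. The summed levels of that list were 10.9 FPKM in CKO against 16.2 in WT, and 10 of its genes lay below 1 FPKM in CKO. The part of pigment epithelium RNA in the Rlbp1 level was not tested.

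A wider list of Müller genes was mixed. Of 15 genes, 8 were more than 2-fold higher in CKO by the interval and none was more than 2-fold lower. Beside this and each later list count stand the shares of all genes in the table, 6.80% and 1.64%. The lists were chosen with these data known, so nothing is read from their counts. Crym, which encodes a thyroid hormone-binding crystallin relative, was at 7.53 FPKM in CKO against 0.251 in WT, with an interval of 17.4 to 56.7 for the ratio. The glial potassium channel gene Kcnj10 was at 0.855 FPKM in CKO against 0.0363 in WT, 23.5-fold higher (7.84 to 116), on 108 CKO and 3 WT reads. The receptor gene Gpr37 was 5.45-fold higher (4.15 to 7.29) and the transporter gene Abca8a 5.16-fold higher (4.03 to 6.70). Dkk3, Vim and Clu, named after their values were seen, are abundant in lens and lay within 2-fold: Vim, the intermediate filament vimentin, was at 424 FPKM in CKO against 435 in WT. These 3 genes made up most of the summed level of the list, 1816 FPKM in CKO against 1770 in WT.

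Bipolar cell members ranged from no difference to a high ratio. Of 13, 9 were more than 2-fold higher in CKO by the interval. Their summed level was 44.7 FPKM in CKO against 17.0 in WT.

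The transcription factors of bipolar cells were low in both libraries. Isl1, a LIM-homeodomain factor of ON bipolar, amacrine and ganglion cells, was at 2.92 FPKM in CKO against 0.0331 in WT, on 270 CKO and 2 WT reads. Its ratio was 88.2 (24.2 to 732). Lhx4, a LIM-homeodomain factor of cone bipolar cells, was at 0.783 FPKM in CKO against 0.0913 in WT, 8.57-fold higher (4.20 to 20.4). Vsx1, a homeodomain factor of cone bipolar cells, had 59 reads in CKO (0.666 FPKM) and 0 in WT. Set against a floor of 3 WT reads its ratio was 12.8, and the lower limit of its counting interval was 10.1.

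Other members marking rod or cone bipolar cells did not move together. Cabp5, a calmodulin-like calcium-binding protein of bipolar cells, was at 6.76 FPKM in CKO against 0.622 in WT, 10.9-fold higher (7.19 to 17.2). Pcp2, a regulator of G proteins in rod bipolar cells, was at 1.17 FPKM in CKO against 0.0717 in WT on 50 CKO and 2 WT reads, a ratio of 16.3 (4.29 to 139). Gabrr1, a subunit of the GABA receptor on bipolar terminals, was at 2.92 FPKM in CKO against 0.229 in WT, 12.7-fold higher (6.31 to 30.03). These 3 genes were all low in WT. Exons of Pcp2 overlap those of Pet100 on the other strand, which was at 2.82 FPKM in CKO against 3.63 in WT, so reads of the pair cannot be fully told apart. Lin7a, a scaffold protein of synaptic junctions, was at 4.91 FPKM in CKO against 0.693 in WT, 7.08-fold higher (5.47 to 9.32). Prkca, the protein kinase C alpha that stains rod bipolar cells, was at 4.07 FPKM in CKO against 3.75 in WT, on 856 CKO and 515 WT reads, a ratio of 1.09 (0.972 to 1.21). Scgn, the calcium-binding protein secretagogin of cone bipolar cells, was at 6.56 FPKM in CKO against 5.50 in WT, a ratio of 1.19 (0.957 to 1.49). Prkca and Scgn were thus among the 4 highest members in WT, and their deposited levels lay close together in the 2 libraries. With library totals alone their log2 ratios of FPKM + 1 were 0.80 and 0.98, in place of 0.09 and 0.22. The part of bipolar cell RNA in the Prkca and Scgn levels was not tested.

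ON bipolar cells read glutamate through the receptor mGluR6 and a G protein, which in the dark hold the TRPM1 channel shut. The 11 genes of this cascade, put together after the values were seen, differed from one another. Grm6, which encodes mGluR6 and lies on the plus strand of chromosome 11 from 50850685 to 50866208 (GRCm38), was at 4.02 FPKM in CKO against 0.230 in WT, on 509 CKO and 19 WT reads, 17.5-fold higher (11.1 to 29.3). Trpm1, the channel gene, was at 2.83 FPKM in CKO against 2.98 in WT, on 974 CKO and 672 WT reads, a ratio of 0.947 (0.857 to 1.05). The receptor gene was thus higher in CKO while the interval of the channel gene included 1.

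Of the G protein subunits, Gnao1, which is shared with most neurons, was at 6.55 FPKM in CKO against 2.59 in WT, 2.53-fold higher (2.21 to 2.91). Gng13 had 10 reads in CKO against 3 in WT, and its ratio of 2.18 (0.561 to 12.3) gives no direction at this depth, and its exons overlap those of Chtf18 on the other strand. Gnb3, also the transducin subunit of cones, was at 44.6 FPKM in CKO against 0.846 in WT, 52.7-fold higher (37.6 to 76.3). The proteins that switch the G protein off also diverged. Rgs11 was at 4.90 FPKM in CKO against 4.77 in WT, a ratio of 1.03 (0.890 to 1.19), or 1.91 with library totals alone. Rgs7 was at 0.512 FPKM in CKO against 0.120 in WT, 4.28-fold higher (2.25 to 8.95). Their partner Gnb5 was at 34.3 FPKM in CKO against 6.56 in WT, 5.23-fold higher (4.32 to 6.38). Among proteins that assemble the complex, the orphan receptor gene Gpr179 was 3.79-fold higher (3.10 to 4.67). Lrit3, at 64 CKO and 1 WT reads, had a ratio of 41.8 (7.24 to 1677). Nyx, which encodes nyctalopin, was at 3.75 FPKM in CKO against 5.60 in WT, a ratio of 0.670 (0.586 to 0.765), which turned to 1.24 with library totals alone. With that scaling the log2 ratio of Trpm1 was 0.60 in place of -0.06.

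Trpm1 is also a gene of melanocytes. Dct, Tyrp1 and Tyr encode enzymes of melanin synthesis and were picked with their values in view. Dct and Tyrp1 were at 2.46 and 2.13 FPKM in CKO and at 2.35 and 1.76 FPKM in WT. Of the pigment list's 14 genes none was at 0 reads in either library, and Tyr had 8 reads in CKO against 6 in WT. Other genes of the list, also picked with their values in view, differed. Oca2, of melanosome transport, had 7 reads in CKO against 151 in WT, a ratio of 0.0303 (0.01197 to 0.0639). Mitf, the melanocyte transcription factor, had a ratio of 0.594 (0.493 to 0.716), which turned to above 1 with library totals alone. The part of pigment cell RNA in the Trpm1 level was not tested.

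**Figure D2:**
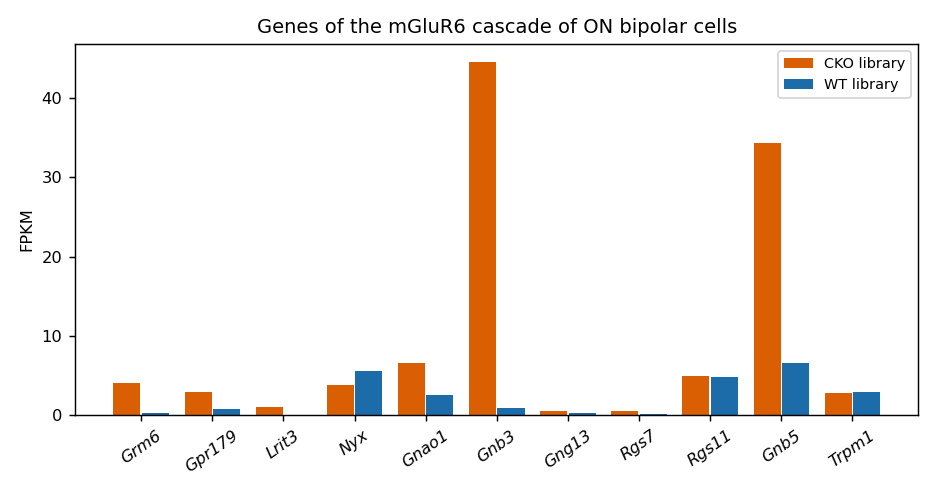
Level in FPKM of 11 genes of the mGluR6 cascade, CKO left and WT right in each pair, 1 library each and no error bars. Grm6, Gnb3 and Gnb5 stand higher in CKO, while Rgs11 and Trpm1 are level and Nyx is lower in CKO. With library totals alone Rgs11, Trpm1 and Nyx are all higher in CKO.

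CRX and OTX2, homeodomain factors of photoreceptors and bipolar cells, bind a core of TAATCC. Promoter sequences of RefSeq on GRCm38.p6 were found for 24 of the 33 genes, in 31 windows, and the core was searched on both strands in the 250 bases before each start. It occurred in 4 member windows (12.9%) and in 6.25% of all 32851 windows. They belong to Cabp5, Trpm1, Isl1 and Gad1. The bipolar members are shown because they pair the same letters with ratios from 0.947 to 88.2. Each sequence runs 5′ to 3′ on the gene's strand and ends next to the start, with capitals at TAATCC or its complement GGATTA.
Cabp5, chr7:13397905-13398154, plus strand: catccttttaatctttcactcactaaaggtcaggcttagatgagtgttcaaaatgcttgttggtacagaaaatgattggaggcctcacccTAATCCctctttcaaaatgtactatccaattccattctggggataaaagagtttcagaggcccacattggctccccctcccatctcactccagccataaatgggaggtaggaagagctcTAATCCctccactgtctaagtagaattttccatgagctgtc
Trpm1, chr7:64153585-64153834, plus strand, the first of its 2 windows: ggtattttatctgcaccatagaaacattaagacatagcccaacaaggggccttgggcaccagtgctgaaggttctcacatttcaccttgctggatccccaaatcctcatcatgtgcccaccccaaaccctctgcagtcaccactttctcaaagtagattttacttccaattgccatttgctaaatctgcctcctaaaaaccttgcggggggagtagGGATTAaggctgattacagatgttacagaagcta
Isl1, chr13:116309689-116309938, minus strand: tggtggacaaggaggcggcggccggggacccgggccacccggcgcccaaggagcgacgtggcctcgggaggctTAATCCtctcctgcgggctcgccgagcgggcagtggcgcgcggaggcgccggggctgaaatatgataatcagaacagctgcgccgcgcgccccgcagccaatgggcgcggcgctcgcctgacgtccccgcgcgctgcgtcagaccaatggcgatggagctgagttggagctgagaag
Cabp5 holds the core at 160 and at 41 bases before its start, Trpm1 at 34 bases and Isl1 at 177. The homeodomain core TAATTA, its own complement, occurred in 1 member window, a Pcp2 window, and in 4.84% of all windows. A match of letters is not a bound site, and windows without one say nothing of the factor.

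All 6 amacrine and horizontal cell members were more than 2-fold higher in CKO by the interval and each lay below 1 FPKM in WT. Their summed level was 67.5 FPKM in CKO against 1.08 in WT. Their summed reads were 2270 in CKO against 36 in WT, 41.2-fold higher (29.7 to 59.0) with the library scaling of the FPKM values. Cck, the neuropeptide cholecystokinin, was at 51.2 FPKM in CKO against 0.669 in WT, on 819 CKO and 7 WT reads, 76.4-fold higher (36.9 to 191). Cck was second only to Glul among the members in CKO. The gene sits at 121489825 to 121495689 of chromosome 9, on the minus strand (GRCm38).

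The enzymes of GABA synthesis were both higher. Gad1 was at 3.05 FPKM in CKO against 0.0686 in WT, on 544 CKO and 8 WT reads, 44.4-fold higher (22.4 to 103). Gad2, the form held at vesicles, was at 0.852 FPKM in CKO against 0.0446 in WT, 19.1-fold higher (7.27 to 71.3). In CKO the Gad1 level was 3.58 times that of Gad2 (2.92 to 4.41), and in WT 1.54 times (0.412 to 6.98), on 8 Gad1 and 4 Gad2 reads. Tfap2b, a transcription factor of amacrine and horizontal cells, was at 2.53 FPKM in CKO against 0.0930 in WT, 27.2-fold higher (14.2 to 60.0).

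Calb1 and Calb2 encode the calcium buffers calbindin and calretinin. Calb2 was at 8.86 FPKM in CKO against 0.137 in WT, a ratio of 64.5 (21.8 to 314) on 296 CKO and 3 WT reads. Calb1, which marks horizontal cells in mouse, was at 1.05 FPKM in CKO against 0.0676 in WT, 15.5-fold higher (6.48 to 48.8). In CKO the Calb2 level was 8.43 times that of Calb1 (6.79 to 10.5).

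Other amacrine genes did not all follow. Of 18 further genes, 12 were more than 2-fold higher in CKO by the interval and 1 more than 2-fold lower. C1ql2, a secreted synaptic organizer, had 186 reads in CKO against 1 in WT, a ratio of 122 (21.5 to 4825). Slc32a1, the vesicular transporter of GABA and glycine, had 213 CKO and 2 WT reads, a ratio of 69.6 (19.03 to 578). Gjd2, connexin 36, which couples AII amacrine cells, was 25.1-fold higher (10.6 to 78.1), and the neuropeptide gene Npy 21.2-fold higher (8.10 to 79.1). Penk, which encodes proenkephalin, was the lower gene, at 11.4 FPKM in CKO against 45.5 in WT, on 436 CKO and 1134 WT reads, a ratio of 0.251 (0.224 to 0.281). Acetylcholine, dopamine and VIP amacrine cells are marked by Chat, Th and Vip, picked here with their values in view. They had 22, 14 and 25 reads in CKO, and WT had none of any.

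Of 5 further horizontal cell genes, 2 were more than 2-fold higher in CKO by the interval and none more than 2-fold lower. Sept4, a septin, was at 5.61 FPKM in CKO against 2.06 in WT, 2.72-fold higher (2.21 to 3.38). Ndrg1 was at 66.3 FPKM in CKO against 129.6 in WT, a ratio of 0.512 (0.499 to 0.525), or 0.949 with library totals alone. The transcription factor genes of the list, given outside the naming rule after their values were seen, rested on few reads. Onecut2 had 32 reads in CKO against 2 in WT, a ratio of 10.5 (2.67 to 90.02). Onecut1 had 4 in CKO against 0 in WT and Lhx1 8 in CKO against 1 in WT, too few to give a direction.

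Ganglion cell members were higher in CKO in 7 of 8 by the interval, with Pou4f1 apart. Their summed level was 31.0 FPKM in CKO against 3.11 in WT. Sncg, gamma-synuclein, was at 11.7 FPKM in CKO against 1.31 in WT, 8.95-fold higher (5.47 to 15.6). Thy1, a surface glycoprotein of ganglion cells that T cells of the mouse also carry, was at 7.60 FPKM in CKO against 0.302 in WT, 25.2-fold higher (12.6 to 58.8). Sncg had the highest WT level of the class.

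The neurofilament genes Nefl and Nefm build the axonal skeleton. Nefl was at 3.54 FPKM in CKO against 0.116 in WT, on 280 CKO and 6 WT reads, 30.5-fold higher (13.8 to 83.8). Nefm was at 1.44 FPKM in CKO against 0.0793 in WT, 18.1-fold higher (8.62 to 45.6). They overlap in annotated exons on opposite strands of chromosome 14, and as no strand setting is given in the sources used here, their reads cannot be fully told apart. Stmn2, a tubulin-binding protein of growing axons, had 142 reads in CKO against 1 in WT, a ratio of 92.8 (16.4 to 3690). Elavl3, a neuronal RNA-binding protein, was at 3.36 FPKM in CKO against 0.169 in WT, 19.9-fold higher (11.5 to 37.6).

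Rbpms and Pou4f1 had the lowest ratios of the class. Rbpms, an RNA-binding protein used to count ganglion cells, was at 1.74 FPKM in CKO against 0.521 in WT, 3.35-fold higher (2.28 to 5.06), and lay within 2-fold once 1 FPKM was added. Pou4f1, the POU-domain factor BRN3A, had 57 reads in CKO against 43 in WT, or 0.522 FPKM in CKO against 0.603 in WT. Its ratio was 0.866 (0.573 to 1.32), and under library totals alone its log2 ratio of FPKM + 1 was 0.25 in place of -0.07.

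Of 17 further ganglion cell genes, 8 were more than 2-fold higher in CKO by the interval. Slc17a6, the vesicular glutamate transporter of ganglion cells, had 69 reads in CKO against 2 in WT, a ratio of 22.5 (6.01 to 190). Nrn1, neuritin, had 58 CKO and 0 WT reads, a ratio of 12.6 against a floor of 3 WT reads, with a lower counting limit of 9.95. Elavl2, at 69 CKO and 3 WT reads, had a ratio of 15.0 (4.93 to 74.6), and Gap43, a growth cone protein, was 12.05-fold higher (6.20 to 26.8). The melanopsin gene Opn4 had 22 reads in CKO against 31 in WT, a ratio of 0.464 (0.256 to 0.827). The transcription factor gene Ebf1 had 57 in CKO against 102 in WT, a ratio of 0.365 (0.259 to 0.510). With library totals alone these ratios were 0.859 for Opn4 and 0.677 for Ebf1. Pou4f2, the companion of Pou4f1 named after its value was seen, had 12 reads in CKO against 0 in WT. In the list of myelin genes, which mark the glia that wrap axons, none of 9 was more than 2-fold higher or lower by the interval.

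The 4 synaptic members had ratios from 22.2 to 103. Their summed level was 60.6 FPKM in CKO against 1.21 in WT, and their summed reads were 37.2-fold higher (30.6 to 45.7) with the library scaling of the FPKM values. Complexins clamp and promote vesicle fusion, and the forms 3 and 4 serve the ribbon synapses of photoreceptors and bipolar cells. Cplx4 was at 27.1 FPKM in CKO against 0.262 in WT, on 1107 CKO and 7 WT reads, 103-fold higher (49.98 to 258), the highest ratio of the 32 members with a WT read. Cplx3, also in amacrine cells, was at 10.2 FPKM in CKO against 0.208 in WT, 49.1-fold higher (25.7 to 108). The conventional forms had lower ratios: Cplx1 was 12.1-fold higher (6.23 to 27.0) and Cplx2, at 7.56 FPKM in CKO against 3.36 in WT, 2.25-fold higher (1.95 to 2.60), both named after their values were seen.

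Snap25 and Syt1 belong to the general release machinery of neurons. Snap25, a SNARE of the plasma membrane, was at 14.2 FPKM in CKO against 0.328 in WT, on 2259 CKO and 34 WT reads, 43.4-fold higher (31.0 to 62.8). Syt1, the calcium sensor of vesicles, was at 9.07 FPKM in CKO against 0.408 in WT, on 1767 CKO and 52 WT reads, 22.2-fold higher (16.9 to 29.8). The 2 intervals do not overlap. Within CKO the Syt1 level was 0.637 times that of Snap25 (0.598 to 0.678), and within WT 1.25 times (0.793 to 1.98).

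Among 25 further synaptic genes, 18 were more than 2-fold higher in CKO by the interval and none more than 2-fold lower. Slc17a7, the vesicular glutamate transporter of photoreceptors and bipolar cells, was at 43.3 FPKM in CKO against 1.09 in WT, 39.7-fold higher (29.9 to 53.7). The vesicle protein genes Syp and Syn1 were 31.99-fold (21.6 to 49.6) and 23.8-fold (10.8 to 65.7) higher. The priming factor gene Unc13a was 14.5-fold higher (9.37 to 23.6).

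**Figure D3:**
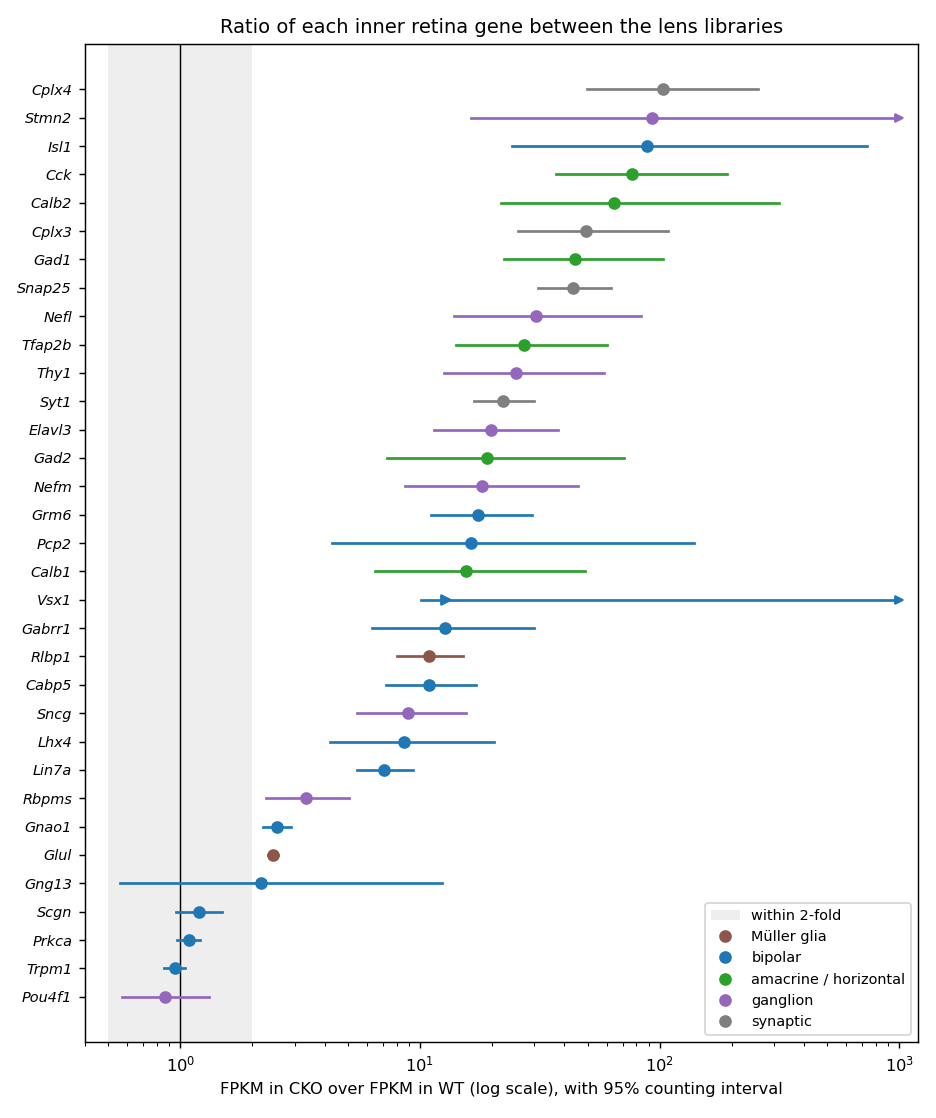
Ratio of FPKM in CKO over WT for each of the 33 genes on a log axis, with exact 95% counting intervals, coloured by class. The grey band marks 2-fold, the arrow at Vsx1 the ratio to a floor of 3 WT reads, and small arrowheads the intervals cut at the right edge. Trpm1 and Pou4f1 lie just below 1 and Cplx4 has the highest ratio of the members with a WT read, 103.

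The 6 members at or above 1 FPKM in WT (Glul, Scgn, Prkca, Trpm1, Gnao1 and Sncg) had ratios of CKO over WT from 0.947 to 8.95, and the 27 below it from 0.866 to 103. Intervals were wide for the 18 members with at most 10 reads in WT. The WT level is itself part of the ratio, so this split is a description only.

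Over all 6 further inner retina lists, 61 of 99 genes were more than 2-fold higher in CKO by the interval and 2 more than 2-fold lower, Cabp2 and Penk. Of all genes in the table, 6.80% were higher and 1.64% lower by that interval. Among further bipolar genes 13 of 19 were higher. Prdm8, a zinc-finger factor, had 214 reads in CKO against 1 in WT, a ratio of 139.8 (24.8 to 5548). Car10 had 125 in CKO against 1 in WT, a ratio of 81.7 (14.4 to 3251), and the homeobox gene Sebox 107 in CKO against 1 in WT, a ratio of 69.9 (12.3 to 2786). Otx2 was 67.9-fold higher (28.9 to 210). The calcium-binding protein gene Cabp2 was at 2.19 FPKM in CKO against 6.31 in WT, a ratio of 0.347 (0.255 to 0.468), though within 2-fold under library totals alone. Car8, a carbonic anhydrase relative, was at 1.78 FPKM in CKO against 3.57 in WT, a ratio of 0.498 (0.403 to 0.614), or 0.923 with library totals alone.

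By the size rule the further lists held 62 genes at a sufficient mean level, of which 38 were higher, 2 lower and 22 within 2-fold. Of all genes at that level, 5.83% were higher and 2.93% lower. The median log2 ratio over all 99 genes of the further lists was 0.77. Markers of astrocytes, the glia of the nerve fibre layer, were mixed: 4 of 6 were more than 2-fold higher by the interval and 1, Aldoc, more than 2-fold lower. The Aldoc ratio of 0.470 became 0.871 with library totals alone. Gfap was at 20.2 FPKM in CKO against 1.26 in WT, and Slc14a1 had 294 reads in CKO against 0 in WT. S100b was 8.93-fold higher (2.85 to 45.1) and Aldh1l1 4.92-fold higher (3.57 to 6.93). The astrocyte factor Pax2 had 3 reads in CKO against 0 in WT, too few to give a direction. These astrocyte genes were named after their values were seen. Lens epithelium markers were at summed levels of 144.0 FPKM in CKO against 260.8 in WT, and 2 of 7 were more than 2-fold lower by the interval. With library totals alone those 2, Npnt and Gja1, had ratios of 0.643 and 0.625, within 2-fold. Under that scaling Foxe3, Fzd6, Pax6, Cdh1 and Cdh2 turned to above 1. These genes too were named after their values were seen.

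**Figure D4:**
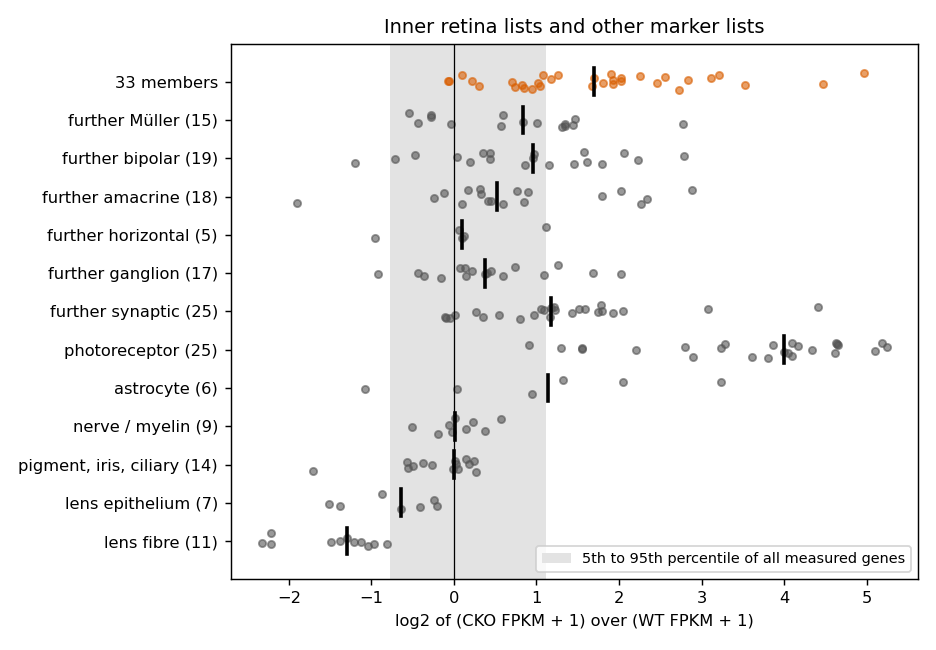
log2 ratio of FPKM + 1, CKO over WT, for every gene of the 33 members and of each other list, 1 point per gene with the list's median as a black bar; list sizes stand in brackets. The grey band holds the 5th to 95th percentile of the measured genes (-0.77 to 1.12). Members have a median of 1.69, photoreceptor genes one of 3.996 and lens fibre genes one of -1.29.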

How the data were processed

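Lens RNA was sequenced as 1 library per genotype. In the submitters' processing notes stand STAR (2.5.1b), DESeq2 (1.10.1) and HTSeq (0.6.0), with no role named. For build, annotation and strand setting the sources used here give nothing. The authors deposited 1 table of FPKM values with gene lengths, the unit being inferred from the values. Each value times its gene length is a whole multiple of 1 step per library, taken as 1 read. With a tolerance of 0.001 read, 100% of values were whole. The steps correspond to effective libraries 1.36 (CKO) and 0.735 (WT) times the recovered totals, equal to trimmed-mean factors computed here, so the deposited values are scaled for composition. Every listed gene has at least 2 reads in the 2 libraries together. Its identifiers matched GENCODE M21 (GRCm38) for 99.5% of genes, and all 33 members overlapped there.

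Python 3.11.15 with SciPy 1.17.1 computed log2 ratios of FPKM + 1 and, from recovered reads, exact conditional binomial 95% intervals (Clopper-Pearson), which cover counting error only. The floor for 0 reads was 3 reads in that library. The read recovery, size rule and intervals were checked on simulated data. The design allowed for counts or FPKM, and its FPKM rule was used. The members, lists and rules were chosen with earlier results of these data known. All 33 members are named, and of each further list the 4 largest ratios with at least 50 reads and any lower past 2-fold; genes outside that rule are marked in the text. Alternatives were the pseudocount, the filter, the scaling and the interval as the call.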

Additional observations from a re-analysis of the deposited data

How the results depend on the processing

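By the size rule 20 members were higher in CKO and none lower. The count of higher members was 20 to 23 under a pseudocount of 0.1, no filter, a minimum of 10 reads, library totals alone, totals without crystallins, median-of-ratios scaling and the counting interval among the 24 members of sufficient level. Over all 33 the interval called 28. No lower member appeared under any of these. The median log2 ratio of the members with a sufficient level was 1.97, and 3.66 with a pseudocount of 0.1. The ratio of the members' summed reads was 3.82 with the library scaling of the FPKM values, 7.08 when scaled to library totals and 4.53 when crystallins were left out of those totals. It was 5.15 without Glul, a subset added after the data were seen. Lower genes of the further lists numbered 2, and 1 under library totals alone. Among all measured genes, 627 were higher, and 2234 under library totals alone. Of those genes 315 were lower, and 489 with a pseudocount of 0.1, 73 with library totals alone, and 207 with totals that leave out crystallins. A scaling multiplies every plain ratio by a constant, and a smaller pseudocount enlarges the log2 ratios of low genes, so these shifts follow from how the alternatives are built. No called member changed sign, while under library totals alone and also without crystallins in the totals all 33 lay above 0, Trpm1 and Pou4f1 included. Rbpms passed with a pseudocount of 0.1, under library totals alone and by the counting interval.

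No paired analysis was possible because each genotype has 1 library. Depth limits the low members most, as 6 had at most 3 reads in WT.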

Other observations

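Genes of ionotropic and metabotropic transmitter receptors were mostly low in both libraries. They were taken as families by symbol after the data were seen, leaving out the members Grm6 and Gabrr1. Of 44 genes in the table besides the members, 7 had a mean of at least 1 FPKM. By the counting interval 20 were more than 2-fold higher in CKO and 3 more than 2-fold lower, beside 6.80% and 1.64% of all genes. Ratios of summed reads below use the library scaling of the FPKM values. Library totals alone raise each of them by the same factor, which took the ratio of the members' summed reads from 3.82 to 7.08. The direction of family ratios near 1 thus depends on the scaling. AMPA receptor genes, which carry fast glutamate transmission, summed to 1090 reads in CKO against 109 in WT, 6.53-fold higher (5.36 to 8.03). Gria4 had 237 reads in CKO against 3 in WT, a ratio of 51.6 (17.4 to 252), and Gria2 was 13.3-fold higher (8.89 to 20.7). Glycine receptor genes summed to 233 reads in CKO against 31 in WT, 4.91-fold higher (3.37 to 7.39). The summed reads of NMDA receptor genes had a ratio of 2.52 (2.03 to 3.16) and those of kainate receptor genes 1.28 (1.17 to 1.39). Those of GABA receptor genes without Gabrr1 had a ratio of 1.07 (0.979 to 1.16). Those of metabotropic glutamate receptor genes without Grm6 had a ratio of 0.946 (0.860 to 1.04). Grm4 alone held 818 of the 1060 CKO reads and 687 of the 732 WT reads of that last sum.

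The GABA receptor genes divided. Gabrr2 was 9.72-fold higher (4.78 to 23.03). Gabra3 was at 0.872 FPKM in CKO against 4.99 in WT, on 80 CKO and 299 WT reads, a ratio of 0.175 (0.135 to 0.224). Gabra4 had 10 reads in CKO against 44 in WT, a ratio of 0.148 (0.0666 to 0.299). Grm4, the most abundant metabotropic glutamate receptor gene of these families, was at 6.58 FPKM in CKO against 8.46 in WT, a ratio of 0.778 (0.702 to 0.862), or 1.44 with library totals alone, and the kainate receptor gene Grik5 was at 5.55 FPKM in CKO against 5.03 in WT, with an interval of 0.972 to 1.25 for the ratio. These values describe 1 library of each genotype.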
